A study of Mus musculus with 4 samples.

Results

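Genes of cytochrome P450 families 1 to 4 were followed in fetal mouse liver, in animals that carried 1 altered copy of Sox17 and in wildtype animals. A gene was included where the array annotation gave a probe set exactly 1 symbol and that symbol belonged to family 1, 2, 3 or 4. In all, 56 of the 18193 named genes on the array met this rule, 54 of the 79 protein-coding members in the RefSeq table of GRCm38.p6 and 2 transcribed pseudogenes, Cyp2d13 and Cyp4f41-ps. They were measured by 69 probe sets, and each gene was represented by the one with the highest mean signal. The Sox17+/- group and the wildtype group were both C57BL/6 fetuses taken on day 17 of gestation, with 2 biological replicates each and 1 single-colour Affymetrix array per replicate. Per the labels' protocols, C57BL/6 females were mated with Sox17+/- males of that strain, and the liver was separated from the biliary system before RNA extraction. The sources used here do not give the nature of the Sox17 allele, the sex of the fetuses or the number of fetuses behind each replicate.

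Cytochrome P450 enzymes of families 1 to 4 are haem proteins of the endoplasmic reticulum that insert an oxygen atom into drugs, pollutants, steroids, bile acids and fatty acids. They draw electrons from NADPH through P450 oxidoreductase and, for some reactions, cytochrome b5. In liver most of them are made by hepatocytes. Their genes are switched on in steps around birth under the control of liver-enriched factors such as HNF4A and C/EBP and of ligand-activated receptors such as PXR, CAR and AHR. Family 1 responds to AHR ligands, families 2 and 3 carry much of drug and steroid oxidation, and family 4 hydroxylates the ends of fatty acid chains.

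Many of these genes arose by local duplication, and the promoters of 4 of them are shown because the genes lie side by side or share sequence while their signals differed. In GRCm38.p6, Cyp3a44 and Cyp3a11 are direct neighbours and Cyp3a16 lies in the same run of Cyp3a genes, while Cyp2f2 is the direct neighbour of Cyp2a12. Each sequence is the 250 bases before the annotated start, from RefSeq on GRCm38.p6, written in the direction of the gene. Capitals mark the nuclear receptor half-site AGGTCA and the FOXA core TGTTTAC, searched on both strands. The Cyp3a11 window is chr5:145879855-145880104 on the minus strand, that of Cyp3a44 chr5:145805875-145806124 on the minus strand, that of Cyp3a16 chr5:145469724-145469973 on the minus strand and that of Cyp2f2 chr7:27119705-27119954 on the plus strand.
Cyp3a11: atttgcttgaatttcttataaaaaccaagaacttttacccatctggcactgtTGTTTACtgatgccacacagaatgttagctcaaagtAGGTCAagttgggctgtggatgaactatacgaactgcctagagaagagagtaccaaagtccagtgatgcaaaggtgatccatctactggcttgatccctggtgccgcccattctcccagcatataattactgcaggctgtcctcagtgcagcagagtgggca
Cyp3a44: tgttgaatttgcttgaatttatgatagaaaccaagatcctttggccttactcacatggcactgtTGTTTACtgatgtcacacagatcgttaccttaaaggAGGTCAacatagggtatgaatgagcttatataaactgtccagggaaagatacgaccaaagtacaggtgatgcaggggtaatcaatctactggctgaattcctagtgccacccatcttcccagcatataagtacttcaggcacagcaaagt
Cyp3a16: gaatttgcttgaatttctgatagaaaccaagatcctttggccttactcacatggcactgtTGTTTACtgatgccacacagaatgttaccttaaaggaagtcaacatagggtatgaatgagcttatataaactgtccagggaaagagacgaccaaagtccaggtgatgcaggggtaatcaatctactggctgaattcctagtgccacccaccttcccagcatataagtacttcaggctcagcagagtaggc
Cyp2f2: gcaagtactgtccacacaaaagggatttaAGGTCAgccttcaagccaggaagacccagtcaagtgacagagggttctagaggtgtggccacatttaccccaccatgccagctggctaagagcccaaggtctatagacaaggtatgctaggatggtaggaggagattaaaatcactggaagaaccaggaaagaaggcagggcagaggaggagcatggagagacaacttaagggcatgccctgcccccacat
The Cyp3a44 and Cyp3a16 windows were identical at 236 of 246 aligned bases, and Cyp3a11 matched Cyp3a16 at 199 of 239. The half-site stood in the windows of Cyp3a11, Cyp3a44 and Cyp2f2, and the FOXA core in all 3 Cyp3a windows shown. Of the 20 P450 genes above the test limit that had a promoter entry, 6 held AGGTCA, against 14.02% of the 32851 windows of this length in the table, and 3 held TGTTTAC, against 3.17%. Those 3 were the Cyp3a genes shown, whose windows share most of their sequence, so they are not 3 independent matches. Cyp3a11 and Cyp3a44 were also among the 6. A TATA-like TATAA on either strand was found in 12 of the 20, against 22.8% of all windows, and a SOX core, AACAAT, in 0 of the 20, against 9.42%. These are letter matches in short windows and no evidence of binding.

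The deposited values were array signals scaled to the same trimmed mean of 500 on each array, with array medians from 84.7 to 103. Sox17 had signals of 139 and 124 on the Sox17+/- arrays, against 244 and 264 on the wildtype arrays, on the brighter of its 2 probe sets. The ending of its ID shows a type of probe set that can match related genes, and the other probe set is not given here. The sources used here do not say whether the brighter probe set matches the altered part of Sox17. The ratio of 3' to 5' signal of the actin control, Actb, was 1.43 and 1.20 on the Sox17+/- arrays and 1.95 and 1.25 on the wildtype arrays, so that wildtype array 1 stood apart. For several P450 genes, values without that array are given beside the results. Xist, the RNA of the inactive X chromosome in females, had 4459 and 50.9 in Sox17+/- liver and 4681 and 7608 in wildtype liver, so that Sox17+/- array 2 alone was low. Xist was looked at after its values were seen, because several adult P450 genes are sex-biased, and its part in the results was not tested. Arrays with the same replicate number also share a code in their names and varied together (r = 0.38 across 22519 probe sets), so differences are given within each same-numbered pair as well.

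Of the 56 P450 genes, 24 had a mean signal above the median of all probe sets, 89.7, and were tested. The remaining 32 were near the level of olfactory receptor genes, which liver is not known to use: 95% of 39 such genes had a mean signal at or below 88.4, and the same 24 P450 genes lay above that value. The tested members were spread over Cyp2a, Cyp2b, Cyp2c, Cyp2d, Cyp2e, Cyp2f, Cyp3a, Cyp4a, Cyp4b, Cyp4f and Cyp4v, and no member of family 1 or of Cyp2j was among them. On all 4 arrays, 15 of the 24 exceeded the 95th percentile of the olfactory receptor genes of that array. Cyp2c29, Cyp2d9, Cyp2d13, Cyp2b9, Cyp3a44 and Cyp4f18 did not exceed it on at least 1 array. Cyp2f2, Cyp2e1 and Cyp4a31, the 1 tested gene each of Cyp2f, Cyp2e and Cyp4a, were below that percentile on both Sox17+/- arrays. Cyp2f2 passed the test limit through both wildtype arrays, and Cyp2e1 and Cyp4a31 through wildtype array 1 alone. A lower Sox17+/- mean was therefore built into the selection of these genes. Just inside the limit was Cyp4a31, with a mean signal of 103, and just outside it Cyp2c38, with 77.2. Each probe set has its own response, so signals of different genes are not ranked as expression levels.

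None of the 24 passed the limma test across all 22519 probe sets (adjusted p = 0.9999 for each of them by limma with Benjamini-Hochberg adjustment), where 0% of probe sets passed in either direction. At an unadjusted p under 0.05, limma gave 4 P450 genes as lower and 0 as higher, against 2.55% of the 11676 tested genes as lower and 1.6% as higher. The count of 4 changed whichever array was left out. Such counts are not given, since 1 genotype is then a single array. With the replicate number as a block, limma gave 6 as lower at an unadjusted p under 0.05, against 4.28% of all tested genes. In 12 of the 24 the Sox17+/- signal was below wildtype in both same-numbered pairs, or 50%, against 32.3% of all tested genes, and in 3 it was above in both, against 25.5%. Both Sox17+/- arrays lay below both wildtype arrays for 8 of the 24, against 18.7% of all tested genes, and above both for 0, against 14.5%. The median log2 difference was -0.36, against -0.02 over all tested genes, and the medians within the pairs were -0.46 for the arrays numbered 1 and -0.28 for those numbered 2. Leaving out Cyp2f2, Cyp2e1 and Cyp4a31, a choice made after seeing the data, left 10 of 21 genes lower in both pairs. Of the 21, 6 were without overlap on the lower side and the median was -0.22. At an unadjusted p under 0.05, limma gave 3 of them as lower. Wildtype array 1 was the highest of the 4 arrays for 15 of the 24, or 62.5%, against 30.5% of all tested genes. Without it the median difference was 0.01, and 8 of the 24 had both Sox17+/- arrays below the remaining wildtype array, close to the 36.2% of all tested genes for which that held. The median was -0.57 without Sox17+/- array 1, -0.14 without Sox17+/- array 2 and -0.66 without wildtype array 2. With 2 arrays per genotype, the smallest two-sided p of an exact permutation test is 0.333. Fewer hepatocytes and less RNA per hepatocyte cannot be told apart in these bulk samples.

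**Figure D1:**
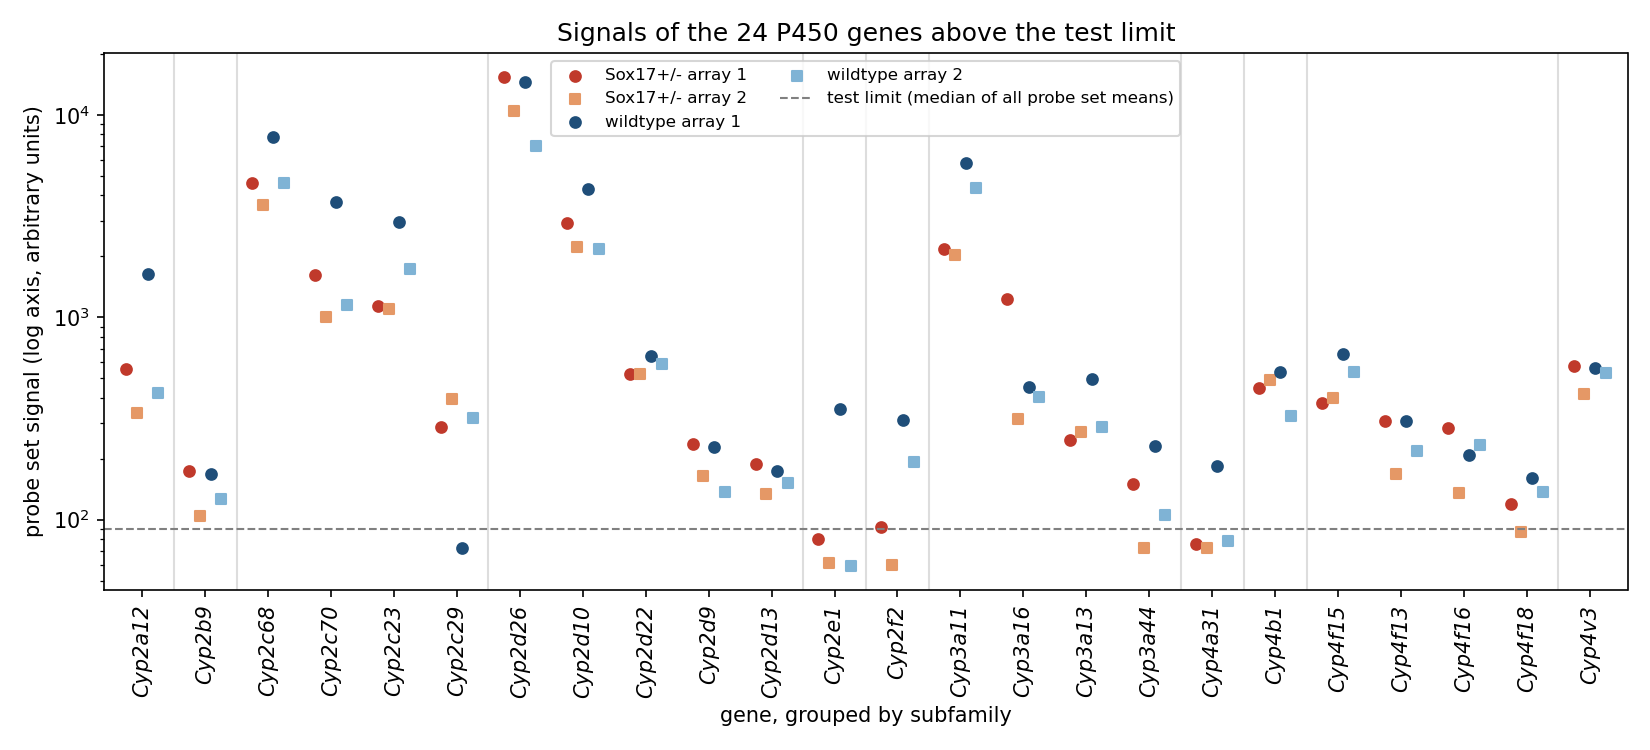
Probe set signal on each array (log axis, arbitrary units) for the 24 P450 genes above the test limit, grouped by subfamily, with Sox17+/- arrays in red and orange and wildtype arrays in dark and light blue. Cyp3a11 and Cyp2f2 show both Sox17+/- arrays well below both wildtype arrays, while Cyp2a12, Cyp2e1 and Cyp4a31 are high on wildtype array 1 alone and Cyp2c29 is low there.

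The Cyp3a subfamily, whose enzymes oxidise a broad range of drugs and steroids, held the gene with the smallest p. Cyp3a11, a main Cyp3a enzyme of adult mouse liver and a PXR target, had signals of 2180 and 2026 in Sox17+/- liver, against 5761 and 4342 in wildtype liver. The Sox17+/- arrays agreed closely with each other, and both lay well below the lower wildtype value. The means were 2103 ± 109 and 5051 ± 1003 (SD, n = 2 each), a log2 difference of -1.24 (SE 0.23) that did not pass limma (unadjusted p = 0.00302, adjusted p = 0.9999). The difference was -1.40 in pair 1 and -1.09 in pair 2, and -1.04 without wildtype array 1.

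Cyp3a16, a Cyp3a form expressed before birth in mouse liver, did not follow Cyp3a11. It had 1235 and 314 in Sox17+/- liver, against 453 and 402 in wildtype liver, so that Sox17+/- array 1 was the highest and Sox17+/- array 2 the lowest of the 4. Cyp3a13, a form also known from intestine, had 248 and 271 in Sox17+/- liver, against 497 and 286 in wildtype liver. The groups did not overlap, but the log2 difference was only -0.08 in pair 2, and -0.14 without wildtype array 1. Cyp3a44, which is female-biased in adult mice, had 151 and 72.3 in Sox17+/- liver, against 233 and 106 in wildtype liver. It was lower within each pair (-0.58 and -0.46), although the groups overlapped, and the difference was -0.0047 without wildtype array 1. On the arrays numbered 2 its signals lay below the 95th percentile of the olfactory receptor genes of the array, 81.5 and 155. The fifth gene, Cyp3a25, was near background. Probe sequences were not compared, so for near relatives such as Cyp3a16 and Cyp3a44 the annotation's assignment of a signal to 1 gene is uncertain.

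Cyp2f2, an enzyme that oxidises naphthalene and is known from lung club cells and periportal hepatocytes, had 92.5 and 59.7 in Sox17+/- liver, against 311 and 193 in wildtype liver. The groups did not overlap, but both Sox17+/- signals lay below the 95th percentile of the olfactory receptor genes on their arrays, 120 and 81.5. The size of the difference is therefore uncertain. With the Sox17+/- signals set to those levels, the group means on the log2(signal + 16) scale lay 2.27-fold apart, lower in Sox17+/- liver. That value takes no account of the spread between arrays, so it is not a firm minimum. A lower Sox17+/- mean was also built into the selection of Cyp2f2. The measured means were 76.1 ± 23.3 and 252 ± 83.9 (SD, n = 2 each), and the measured log2 difference of -1.53 did not pass limma (adjusted p = 0.9999, and 0.562 with the replicate number as a block). It was -1.20 without wildtype array 1. Cyp2a12, its neighbour on the chromosome and a bile acid hydroxylase in mouse, had 553 and 336 in Sox17+/- liver, against 1635 and 424 in wildtype liver. Most of that gap was in pair 1 (-1.54, against -0.32 in pair 2), and the difference was 0.02 without wildtype array 1.

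**Figure D2:**
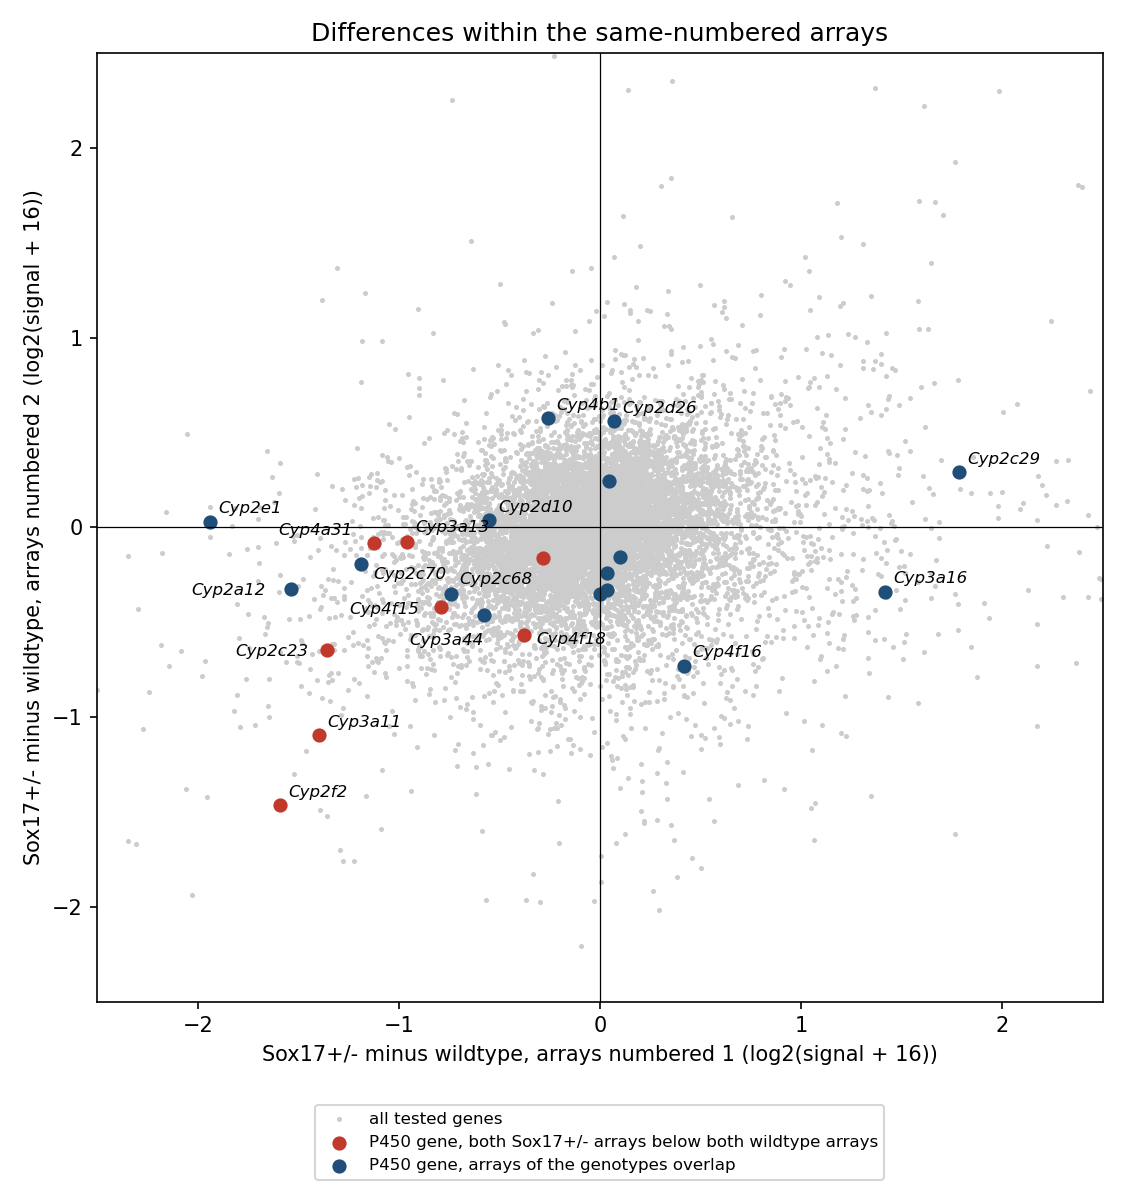
Difference in log2(signal + 16), Sox17+/- minus wildtype, in the arrays numbered 1 (x axis) and numbered 2 (y axis) for the 24 P450 genes, over all tested genes in grey, of which 47 fall outside the plotted range of 2.5 in either direction. Cyp3a11, Cyp2f2 and Cyp2c23 lie below 0 on both axes, while Cyp2e1, Cyp4a31 and Cyp3a13 are far below 0 on the x axis and near 0 on the y axis.

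Of 4 tested Cyp2c genes, 3 were lower in both pairs and 1 was higher in both. The median difference of the 4 was -0.62, with -0.97 in pair 1 and -0.27 in pair 2. Cyp2c23, an arachidonic acid epoxygenase, had 1138 and 1098 in Sox17+/- liver, against 2944 and 1725 in wildtype liver. The groups did not overlap, and the means of 1118 ± 28.5 and 2334 ± 862 (SD, n = 2 each) differed by -1.002 on the log2 scale (SE 0.31, unadjusted p = 0.0224, adjusted p = 0.9999 by limma). The difference was -1.36 in pair 1 and -0.64 in pair 2, and -0.62 without wildtype array 1. Its probe set is of a type that can match related genes, as the ending of its ID shows.

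Cyp2c70, which makes muricholic acids from chenodeoxycholic acid in mouse liver, had 1622 and 1005 in Sox17+/- liver, against 3715 and 1152 in wildtype liver. Wildtype array 1 alone stood high, and the difference was 0.15 without it. Cyp2c68 had 4631 and 3604 in Sox17+/- liver, against 7758 and 4607 in wildtype liver. The overlap was of a narrow kind, since Sox17+/- array 1 exceeded wildtype array 2 by little. Its log2 difference was -0.17 without wildtype array 1. Cyp2c29, a CAR-inducible epoxygenase, ran the other way, with 289 and 393 in Sox17+/- liver, against 72.2 and 318 in wildtype liver. Its log2 difference of 1.04 (SE 0.65) was the largest on the higher side. It was 0.08 without wildtype array 1, the 1 array on which the signal was low.

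The 5 tested Cyp2d genes differed little, with a median log2 difference of -0.03 and a range from -0.26 to 0.32. Cyp2d26 had 15303 and 10401 in Sox17+/- liver, against 14577 and 7050 in wildtype liver, and Cyp2d10 had 2934 and 2221, against 4299 and 2164. In both genes the arrays numbered 1 were above those numbered 2 in each genotype. Cyp2d22, the mouse gene often compared with human CYP2D6, had 524 and 522 in Sox17+/- liver, against 641 and 587 in wildtype liver. The groups did not overlap, but the log2 difference was only -0.22 (SE 0.20), and it was -0.55 on the other probe set of the gene, again without overlap. Cyp2d9, a male-biased steroid hydroxylase of adult mice, had 235 and 165 in Sox17+/- liver, against 228 and 137 in wildtype liver. The pseudogene Cyp2d13 had 188 and 134 in Sox17+/- liver, against 174 and 151 in wildtype liver.

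Cyp2e1, which oxidises ethanol, acetone and paracetamol and is known to be activated around birth, had 80.7 and 60.9 in Sox17+/- liver, against 354 and 59.3 in wildtype liver. Only wildtype array 1 was clearly above the test limit, and the other 3 arrays were near background. The log2 difference was -0.95 (SE 0.75), and 0.19 without that array. Cyp2b9, female-biased in adult mice, had 173 and 105 in Sox17+/- liver, against 168 and 127 in wildtype liver, with pair differences of 0.04 and -0.24.

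Family 4 members, fatty acid hydroxylases, were spread about smaller differences. Cyp4f15 had 375 and 397 in Sox17+/- liver, against 660 and 538 in wildtype liver, with close agreement within each genotype. The means were 386 ± 15.7 and 599 ± 86.5 (SD, n = 2 each), with a log2 difference of -0.61 (SE 0.21, unadjusted p = 0.0366, adjusted p = 0.9999 by limma). Cyp4f18, a leukotriene B4 hydroxylase of mouse neutrophils, had 120 and 86.8 in Sox17+/- liver, against 161 and 136 in wildtype liver, without overlap. On Sox17+/- array 1 and wildtype array 2 these signals did not exceed the 95th percentile of the olfactory receptor genes of the array, 120 and 155. The other probe set of Cyp4f18, at a mean signal of 7.87, was near background. The neutrophil marker list showed no such order, with 3 of 9 tested genes lower and 4 higher in both pairs, and its part in the Cyp4f18 difference was not tested.

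Cyp4f13 and Cyp4f16 had mixed pairs. Cyp4f13 had 307 and 168 in Sox17+/- liver, against 307 and 218 in wildtype liver. Cyp4f16 had 285 and 135 in Sox17+/- liver, against 209 and 235 in wildtype liver, and its other probe set gave a log2 difference of 0.54, against -0.16 for the brighter one. Cyp4a31, of the PPARα-responsive Cyp4a group, had 75.9 and 72.9 in Sox17+/- liver, against 184 and 78.2 in wildtype liver. The groups did not overlap, but wildtype array 2 lay close above the Sox17+/- arrays (log2 difference -0.08 in pair 2, against -1.12 in pair 1). The difference was -0.06 without wildtype array 1. Cyp4b1, which hydroxylates short fatty acids and is best known from lung, had 446 and 490 in Sox17+/- liver, against 537 and 324 in wildtype liver. Cyp4v3, a fatty acid hydroxylase whose human counterpart is CYP4V2, had 573 and 419 in Sox17+/- liver, against 560 and 531 in wildtype liver. In both genes the genotypes overlapped.

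The 32 near-background genes had mean signals from 4.52 to 77.2, and single signals from 2.07 to 137. Of these, 10 had both Sox17+/- arrays below both wildtype arrays and 4 had both above, against 19.5% and 13% of all genes below the limit. Wildtype array 1 was the highest array for 9 of the 32, against 22.7% of all genes below the limit. The gaps between the pair differences of a gene were wider here (median 0.66 on the log2 scale) than among the 24 tested genes (median 0.44). The 95th percentile of the olfactory receptor genes on a single array was 120 and 81.5 in Sox17+/- liver and 80.1 and 155 in wildtype liver. Set against these uneven levels, 5 of the 32 exceeded that of their array, all on wildtype array 1, which had the lowest level. These were Cyp3a25, Cyp2c38, Cyp2j5, Cyp1a1 and Cyp2d12.

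By subfamily, the near-background genes included all 5 Cyp2j genes (Cyp2j5, Cyp2j6, Cyp2j9, Cyp2j11 and Cyp2j13, mean signals from 28.4 to 58.2). Of 11 Cyp2c genes 7 were in this group (Cyp2c37, Cyp2c38, Cyp2c39, Cyp2c50, Cyp2c54, Cyp2c55 and Cyp2c65), 3 of them with both Sox17+/- arrays below both wildtype arrays and 1, Cyp2c55, with both above. Of 4 Cyp2b genes 3 were in it (Cyp2b10, Cyp2b13 and Cyp2b19), and of 8 Cyp2d genes also 3 (Cyp2d12, Cyp2d34 and Cyp2d40). In family 4 they were Cyp4a12a, Cyp4a14, Cyp4f14, Cyp4f39, Cyp4f41-ps and Cyp4x1. Single members of their subfamily were Cyp1b1, Cyp2g1, an enzyme of the olfactory mucosa, Cyp2r1, a vitamin D 25-hydroxylase, Cyp2s1 and Cyp2u1.

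Among the dim genes, Cyp3a25 had 29.3 and 4.30 in Sox17+/- liver, against 137 and 40.2 in wildtype liver, and Cyp2c38 had 15.5 and 78.2, against 135 and 80.1. Cyp2j5, an epoxygenase of kidney and liver, had 18.0 and 24.9 in Sox17+/- liver, against 112 and 16.1 in wildtype liver. Each of these 3 genes was highest on wildtype array 1. Cyp2b10, a target of CAR, had 6.98 and 7.69 in Sox17+/- liver, against 53.9 and 92.5 in wildtype liver, all at or near background, and its other 2 probe sets had overlapping groups. The AHR targets Cyp1a1 and Cyp1a2 were also near background, with 101 and 56.1 in Sox17+/- liver, against 94.7 and 51.4 in wildtype liver, for Cyp1a1, and 9.28 and 7.67, against 26.3 and 16.9, for Cyp1a2. Cyp4a14, a PPARα target, had 106 and 4.99 in Sox17+/- liver, against 3.84 and 38.3 in wildtype liver, with no order by genotype.

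**Figure D3:**
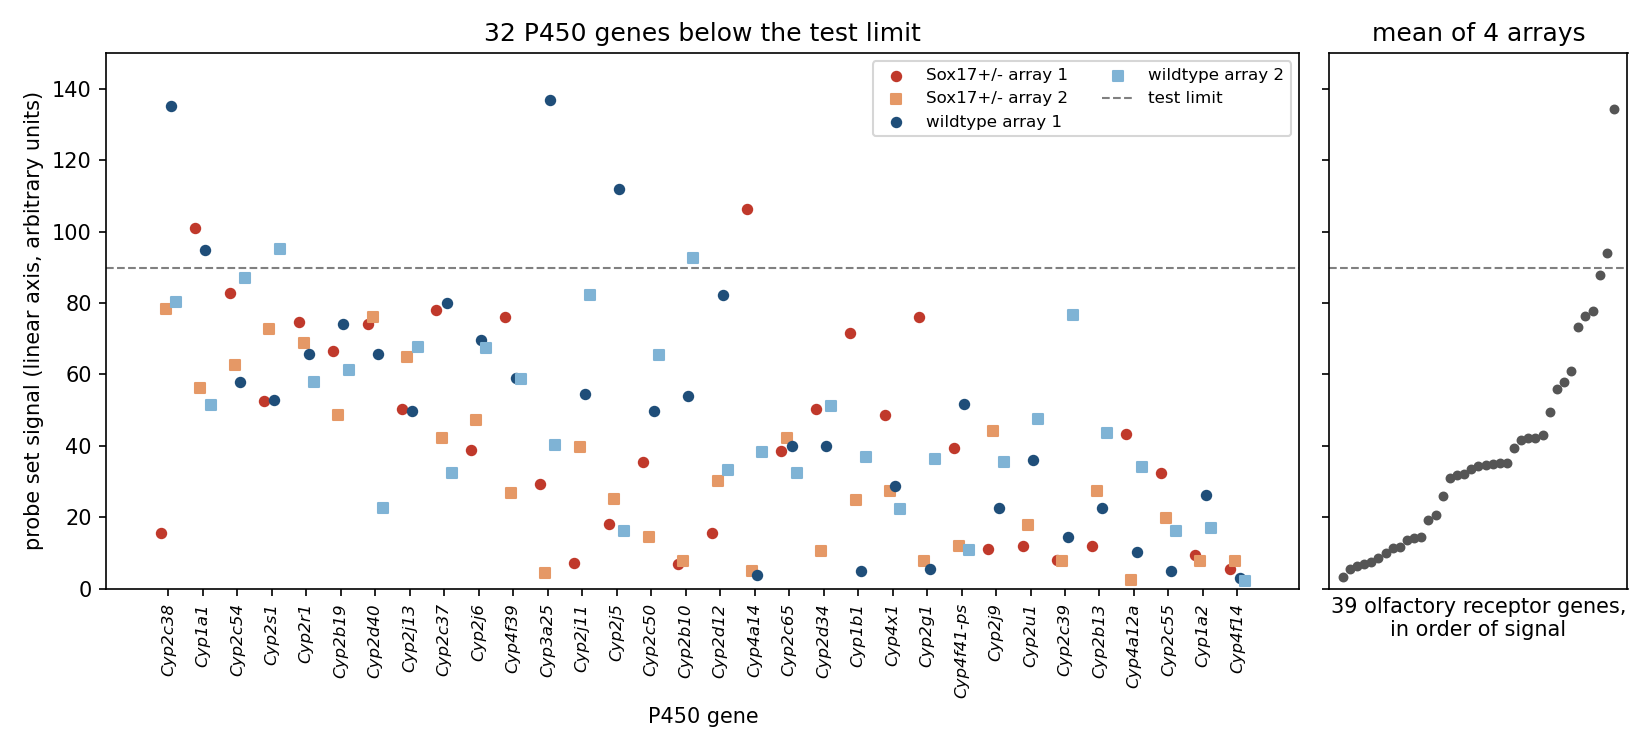
Probe set signal on each array (linear axis, arbitrary units) for the 32 P450 genes below the test limit, beside the mean signals of 39 olfactory receptor genes. Most P450 signals fall in the same range as the olfactory receptor genes, and Cyp2c38 and Cyp3a25 each have their highest signal on wildtype array 1.

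Genes that serve or control these enzymes did not share a direction. Of 10 electron transfer and haem genes, 5 were lower and 4 higher in both pairs, with a median log2 difference of -0.01. None passed the limma test. Alas1, which starts haem synthesis, had 1509 and 1313 in Sox17+/- liver, against 1677 and 1618 in wildtype liver, a small gap without overlap (log2 difference -0.22, SE 0.20). Hmox1, which breaks haem down, had 9123 and 7538 in Sox17+/- liver, against 2261 and 4948 in wildtype liver (log2 difference 1.31, SE 0.41, unadjusted p = 0.0244, adjusted p = 0.9999 by limma). Cytochrome b5, Cyb5a, had 18761 and 14398 in Sox17+/- liver, against 18921 and 15228 in wildtype liver. P450 oxidoreductase, Por, was not analysed here.

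Of 20 tested receptors and factors, 7 were lower and 7 higher in both pairs, with a median of 0.01, and 0 passed the limma test. The PXR gene Nr1i2 had 195 and 246 in Sox17+/- liver, against 193 and 250 in wildtype liver. The CAR gene Nr1i3 had 138 and 141, against 218 and 98.5, and Ahr had 1266 and 837, against 1296 and 853. The bile acid receptor FXR, Nr1h4, had 236 and 189 in Sox17+/- liver, against 530 and 270 in wildtype liver (log2 difference -0.80, SE 0.36, adjusted p = 0.9999 by limma). The C/EBPβ gene Cebpb ran the other way, with 2770 and 1482 in Sox17+/- liver, against 1288 and 1106 in wildtype liver, as did the glucocorticoid receptor gene Nr3c1, with 2005 and 1719, against 1534 and 1094, and the transcriptional repressor gene Bcl6, with 127 and 143, against 89.5 and 104.

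P450 genes outside families 1 to 4 were split. Of 9 tested, 3 were lower and 4 higher in both pairs, with a median of 0.32. Cyp7a1, the enzyme that starts the classic bile acid pathway, had 121 and 70.9 in Sox17+/- liver, against 413 and 158 in wildtype liver. On Sox17+/- array 2 the Cyp7a1 signal lay below the 95th percentile of the olfactory receptor genes of the array, 81.5. On Sox17+/- array 1 and wildtype array 2 it barely exceeded that level, 120 and 155. Cyp51, which demethylates lanosterol in cholesterol synthesis, had 3478 and 3372 in Sox17+/- liver, against 2332 and 2341 in wildtype liver. Cyp24a1, which breaks down active vitamin D, had 169 and 114 in Sox17+/- liver, against 90.5 and 60.1 in wildtype liver. The wildtype mean of Cyp24a1, 75.3, lay below the test limit, so a higher Sox17+/- mean was built into its selection. Its signal on wildtype array 2 was also below the 95th percentile of the olfactory receptor genes of that array, 155. The groups did not overlap for any of these 3 genes, and 0 passed the limma test (adjusted p = 0.9999 for each).

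**Figure D4:**
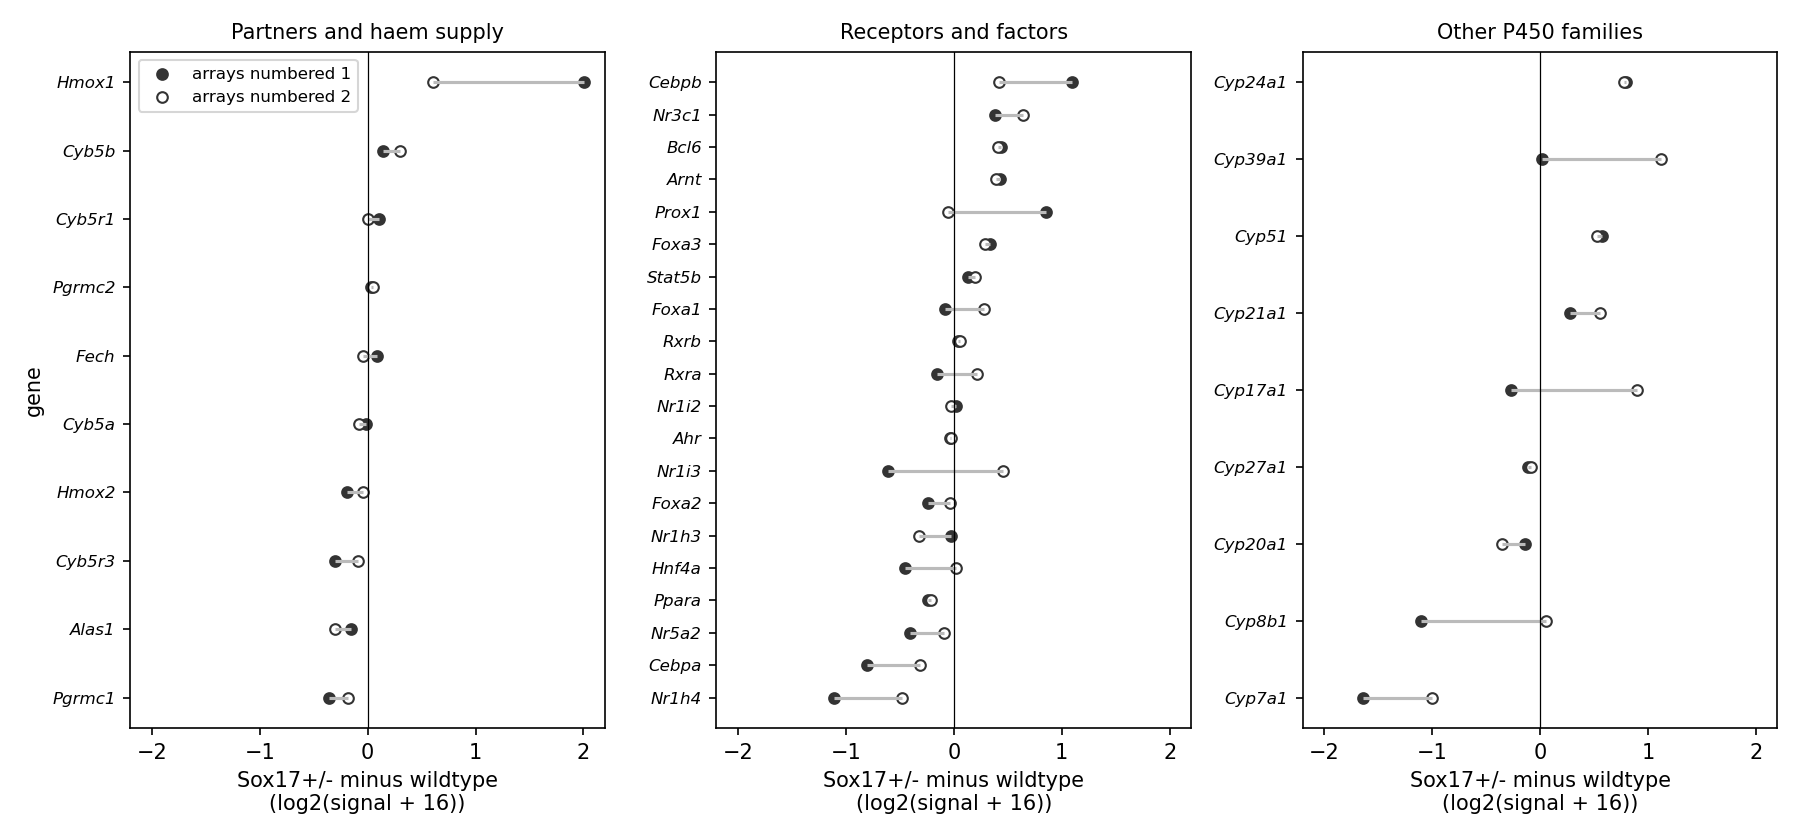
Difference in log2(signal + 16), Sox17+/- minus wildtype, within the arrays numbered 1 (filled) and numbered 2 (open) for tested partner, regulator and other P450 genes. Nr1i2 and Ahr sit near 0 in both pairs, Hmox1 lies highest among the partners and Cyp7a1 lowest among the other P450 genes.

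The abundant markers of hepatocytes had a median difference near 0. Of 12 tested hepatocyte markers, 5 were lower and 1 higher in both pairs, 0 had groups without overlap, and the median log2 difference was -0.06. Their summed signal was 440164 and 266670 on the Sox17+/- arrays and 457338 and 281246 on the wildtype arrays, so that it followed the array number more than the genotype. Alb had 42354 and 22768 in Sox17+/- liver, against 40785 and 23777 in wildtype liver. Tat and Tdo2, hepatocyte genes known to come on around and after birth, were near background. Tat had 34.5 and 26.7 in Sox17+/- liver, against 92.9 and 27.5 in wildtype liver, highest on wildtype array 1 as many P450 genes were. Tdo2 did not share that order, with 95.7 and 70.7 in Sox17+/- liver, against 79.5 and 83.2 in wildtype liver.

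Markers of other liver cells did not share 1 direction, and single markers differed as much as the P450 genes. None of those below passed limma (adjusted p = 0.9999 for each). Of 7 macrophage markers, 3 were lower and 3 higher in both pairs, with a median log2 difference of -0.07. Vsig4, a complement receptor of Kupffer cells, had 130 and 194 in Sox17+/- liver, against 811 and 364 in wildtype liver (log2 difference -1.68, SE 0.43, unadjusted p = 0.0115 by limma). Clec4f, a lectin of mouse Kupffer cells, had 487 and 402 in Sox17+/- liver, against 1097 and 584 in wildtype liver. Both were without overlap on the lower side and highest on wildtype array 1. Marco, a scavenger receptor of macrophages, was without overlap on the higher side, with 5024 and 3274 in Sox17+/- liver, against 2257 and 1738 in wildtype liver (log2 difference 1.03, SE 0.30, unadjusted p = 0.0177 by limma). The summed signal of the list, which is weighted toward bright genes such as Csf1r and Cd5l, was 20802 and 18200 in Sox17+/- liver, against 20606 and 16920 in wildtype liver.

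Of 9 stellate and mesenchymal markers, 3 were lower and 3 higher in both pairs, with a median of 0.06. Rgs5, a gene of pericytes, had 354 and 228 in Sox17+/- liver, against 77.7 and 33.7 in wildtype liver (log2 difference 2.14, SE 0.39, unadjusted p = 0.00276 by limma). Rgs5 passed the test limit through the Sox17+/- arrays alone, so a higher Sox17+/- mean was built into its selection. Des, the desmin gene of stellate and muscle cells, had 251 and 195 in Sox17+/- liver, against 125 and 69.7 in wildtype liver (log2 difference 1.11, SE 0.32, unadjusted p = 0.0166 by limma). The groups did not overlap for either gene. Both wildtype signals of Rgs5 and that of Des on wildtype array 2 lay below the 95th percentile of the olfactory receptor genes of the array, so that the log2 difference of Rgs5 is a measured value against a level near background. The summed signal was 12965 and 12605 in Sox17+/- liver, against 13714 and 11846 in wildtype liver. Of 9 endothelial markers, 1 was lower and 4 higher in both pairs, with a median of 0.10 and a summed signal of 8396 and 8356 in Sox17+/- liver, against 8509 and 6781 in wildtype liver. The part of cell content in the P450 differences was not tested.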

How the data were processed

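Total RNA from fetal liver was measured as biotin-labelled cRNA on 4 single-colour Affymetrix arrays. What the authors deposited is 1 linear intensity per probe set and array. The submitters' processing notes name MAS5, and the sources used here give no version or settings. On each array the mean after trimming 2% at either end was 500, so differences in total RNA between samples are removed, and dim values carry much noise. Of 45101 probe sets, 64 controls were left out, 34945 had 1 gene symbol, 932 had several and 9160 had none listed in the platform annotation. Among those with several symbols were 4 with P450 names, which were not used.

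From the deposited intensity values, log2(signal + 16) was computed. This scale understates differences of dim genes. Genotype was the single factor of a limma 3.58.1 model in R 4.3.3 (two-sided, 2 residual degrees of freedom plus 3.06 from the prior), applied to the brighter 50% of probe sets by mean signal, 22519 in all, with Benjamini-Hochberg adjustment over them and a threshold of 0.05. The code was tested on simulated data. Standard errors are those of this fit, and mean ± SD is on the linear scale. The number of arrays limits the precision.

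The members, gene lists and tests were chosen with earlier results of these data known. Genes named are Sox17, all P450 members above the test limit, up to 4 members of each other list in order of p, and Nr1i2, Nr1i3, Ahr and Alas1. The near-background members given with values, Cyb5a, Alb, Tat, Tdo2 and Xist were picked after their values were seen. The 10 lists are described by counts, medians and, for marker lists, summed signals, with no list test. Erythroid genes had 1 of 4 tested members lower and 0 higher in both pairs, and biliary genes 0 of 2 lower and 1 higher. Replicate numbers are shared between genotypes, deviations of arrays with the same number correlated (r = 0.38), and the array names give these arrays a common code of unstated meaning. The alternatives were other pseudocounts, filters, normalizations, priors and probe set choices, the replicate number as a block, and leaving out each array. Promoters came from RefSeq on GRCm38.p6 and were aligned with Biopython 1.88.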

Additional observations from a re-analysis of the deposited data

How the results depend on the processing

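No P450 gene passed the adjusted threshold in any fit run. The smallest adjusted p of a member was 0.192 by limma, for Cyp2e1 without wildtype replicate 2, where the lone wildtype array is assumed to vary like the other group. With the replicate block 0 probe sets and 0 P450 genes passed (smallest adjusted p of a member 0.562 by limma), and the median and both counts were as without it. Of the 22519 probe sets, 3 passed with median centring and 3 with a trended and robust prior, with 0 members among the calls. Under median centring 5 members had both Sox17+/- arrays below both wildtype arrays, against 11.1% of all tested genes. With no filter, which takes in all 56 members, 18 had both Sox17+/- arrays below both wildtype arrays. That held for 18.7% of all genes above the test limit and 19.5% of those below it. In the same setting, 25 were lower in both pairs and the median difference was -0.21. Among the brighter 25% of probe sets, which hold 11 members, these values were 4, 7 and -0.55. For that subset, and for the pair count with no filter, no share of all genes is given, so the counts are not read as an excess. Leaving out 1 array at a time gave 8 to 18 members without overlap on the lower side. Non-overlap is easier to meet with an array missing. The share of all genes is not given for each omission, so this range is not read as an excess. The median lay between -0.66 (without wildtype replicate 2) and 0.0094 (without wildtype replicate 1). Pair counts cannot be made with an array missing. Of the 24 members, 11 had the same sign under all alternatives run. Cyp3a11, Cyp2f2, Cyp2c23 and Cyp4f15 were among them on the lower side, and Cyp2c29 on the higher side. Cyp2f2 and Cyp4a31 were also among the 11, though a lower Sox17+/- mean was built into their selection. A kept sign can be a difference near 0, as with -0.0047 for Cyp3a44, -0.06 for Cyp4a31 and 0.08 for Cyp2c29. The other 13 changed sign when 1 array was left out, with log2 differences of -0.21 to 0.84 for Cyp2d26, -0.75 to 0.24 for Cyp2d10, -1.53 to 0.15 for Cyp2c70, -1.88 to 0.024 for Cyp2a12, -0.42 to 1.5 for Cyp3a16, -0.37 to 0.070 for Cyp4v3, -0.19 to 0.51 for Cyp4b1, -0.58 to 0.23 for Cyp4f13, -0.65 to 0.34 for Cyp4f16, -0.19 to 0.48 for Cyp2d9, -0.25 to 0.19 for Cyp2d13, -0.43 to 0.22 for Cyp2b9 and -2.10 to 0.19 for Cyp2e1. Cyp2d13 was also 0.017 with median centring, 0.031 with quantile normalization and 0.64 as the mean of its probe sets, and Cyp4f16 was 0.19 as the mean of its probe sets. The cause of these changes was not tested. Leaving out probe sets that can match related genes, or taking the mean over a gene's probe sets, gave medians of -0.26 and -0.27. Leaving out the 3 members below the olfactory receptor level on both Sox17+/- arrays, chosen after seeing the data, gave 10 lower in both pairs, 6 without overlap and a median of -0.22. Also chosen after seeing the data, the olfactory receptor limit also gave 12 members lower in both pairs, and the median without members on shared-transcript probe sets was -0.36. The 32 dim genes lay in the signal range of olfactory receptor genes, where the pair differences of a gene were farther apart.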
